A study of Mus musculus with 10 samples.

Results

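Calmodulin-dependent kinases and protein kinase D (PKD) were followed in RNA-Seq libraries of cardiomyocytes isolated on day 4 after myocardial infarction (MI), in mice with and without a GRK5 transgene. The family was taken as the rows of the deposited table whose Ensembl identifier carries 1 of 10 gene symbols in GENCODE M21: Camk2a, Camk2b, Camk2d and Camk2g (CaMKII), Camk1, Camk4 and Camkk2 (the CaMKK cascade), and Prkd1, Prkd2 and Prkd3 (PKD). All 10 were among the 51789 genes of the table, each under a single identifier, and the rule uses no measured value. The mice were TgGRK5, which overexpress GRK5 in cardiomyocytes from a transgene, or their non-transgenic littermate controls (NLC). Both groups underwent permanent ligation of a coronary artery, so that every library comes from an infarcted heart. The groups are called TgGRK5-MI and NLC-MI, with 5 mice and 5 libraries each (1 library per mouse). The labels give neither the age nor the sex of these mice. The study describes its operated TgGRK5 and NLC mice as young adults of both sexes, and sham-operated mice were not analysed here. The promoter and the species of the transgene are not given in the sources used here.

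CaMKII is a multimeric serine/threonine kinase that opens when calcium-loaded calmodulin binds it and that can stay active by phosphorylating itself. In the heart it acts on the ryanodine receptor, phospholamban and L-type calcium and sodium channels, and it is studied for its part in arrhythmia and heart failure. CaMKK phosphorylates CaMKI and CaMKIV, whereas PKD is switched on by diacylglycerol and protein kinase C downstream of Gq-coupled receptors. CaMKII, PKD and GRK5 are all known as kinases of class IIa histone deacetylases (HDACs), whose export from the nucleus releases the transcription factor MEF2.

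The paralogs are close in sequence, so the bases by which reads can be told apart bear on every value below. The following 60-base coding stretches align between the CaMKII genes. They were read 5′ to 3′ along the coding strand of GENCODE M21 transcripts on GRCm38, and capitals mark bases that differ from Camk2d.
Camk2d, chr3:126767518-126767577, plus strand, exon 5 of 21: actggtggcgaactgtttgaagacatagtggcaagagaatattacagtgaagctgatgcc
Camk2b, chr11:5997885-5997944, minus strand, exon 5 of 24: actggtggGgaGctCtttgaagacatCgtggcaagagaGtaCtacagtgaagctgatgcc
Camk2g, chr14:20770066-20770125, minus strand, exon 5 of 22: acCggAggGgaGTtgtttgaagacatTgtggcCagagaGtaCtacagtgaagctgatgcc

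Camk2b differs from Camk2d at 6 of these bases, each at the third position of a codon. Camk2g differs at 9 bases, 8 of them at the third position. A stretch of the PKD genes, likewise chosen as the most alike, is shown for the same reason, with capitals where a base differs from Prkd2.
Prkd2, chr7:16865798-16865857, plus strand, exon 16 of 18: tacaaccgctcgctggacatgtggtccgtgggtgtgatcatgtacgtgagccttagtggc
Prkd1, chr12:50364609-50364668, minus strand, exon 17 of 19: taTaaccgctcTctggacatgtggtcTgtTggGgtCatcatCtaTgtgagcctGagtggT
Prkd3, chr17:78954571-78954630, minus strand, exon 17 of 19: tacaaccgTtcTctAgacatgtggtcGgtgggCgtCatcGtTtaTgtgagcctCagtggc

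Prkd1 and Prkd3 each differ from Prkd2 at 10 bases of this stretch. Across whole transcripts, the longest run shared exactly by a pair of CaMKII genes was 34 bases (Camk2a with Camk2b, and Camk2a with Camk2d), and the longest shared by a pair of PKD genes was 33 bases (Prkd1 with Prkd3). No 50-base word was shared between any of the 10 genes. The read length and the strand setting are not given in the sources used here, so whether reads were shorter than these runs is not known. Camk1 overlaps Ogg1, a DNA repair gene on the opposite strand, in 232 exon bases, which hold 2.22% of its 50-base words, and without strand reads of this overlap cannot be assigned. Ogg1 had 1206 counts in all libraries together against 26519 for Camk1.

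Libraries held from 7968779 to 23381527 counts, and 3 of them (NLC-MI replicate 3, TgGRK5-MI replicates 3 and 4) were the shallowest, with at most 12833652. In the deepest and shallowest library, 3 counts correspond to 0.121 and 0.393 CPM (counts scaled to library size with TMM factors, as everywhere below). Grk5 was at 60.4 ± 9.50 CPM in NLC-MI against 1222 ± 472 CPM in TgGRK5-MI (SD, n = 5 each), with no overlap between groups and a log2 fold change of 4.34 ± 0.32 (SE, adjusted p = 0.000246, edgeR quasi-likelihood test). Cardiomyocyte markers (10 genes, none at 0 in any library) summed to between 50629 and 131655 CPM in NLC-MI and between 53337 and 104645 CPM in TgGRK5-MI. Fibroblast markers summed to between 4027 and 24086 CPM and between 4194 and 24745 CPM, and monocyte and macrophage markers to between 642 and 2050 CPM and between 1100 and 2295 CPM, so markers of other cell types were measured in both groups. In such bulk libraries, fewer cells of a type and less RNA per cell cannot be told apart.

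None of the 10 kinase genes passed an adjusted p under 0.10 (edgeR quasi-likelihood test, Benjamini-Hochberg adjustment over 15232 genes), a threshold that 12 genes, or 0.0788% of those tested, passed (0.0525% higher and 0.0263% lower in TgGRK5-MI). All 10 passed the filter on low counts. At an unadjusted p under 0.05, 1 of the 10 was higher in TgGRK5-MI (Camk2b) and 2 were lower (Camk2g and Camk2a), against 3.85% of all genes tested (1.77% higher and 2.08% lower). DESeq2 called 0 of the 10 at an adjusted p under 0.10, against 0.447% of the genes to which it gave one. Of the 10 fitted log2 fold changes 2 lay above 0 and 8 below, with a median of -0.10 against 0.0013 over all genes tested. The median ranged from -0.22 (without NLC-MI replicate 5) to -0.08 (without TgGRK5-MI replicate 1) with 1 library left out, and was -0.25 with limma-voom. It was over 1.5 times its value of -0.10 also without TgGRK5-MI replicates 2 or 4 (-0.19 and -0.17), without the 3 shallowest libraries (-0.17) and with a covariate of Xist and Y-linked genes (-0.19). The split became 4 above and 6 below without NLC-MI replicate 1, without TgGRK5-MI replicate 1 or with this covariate. The groups overlapped for each of the 10 genes, whereas they did not overlap for 1.0% of all genes.

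**Figure D1:**
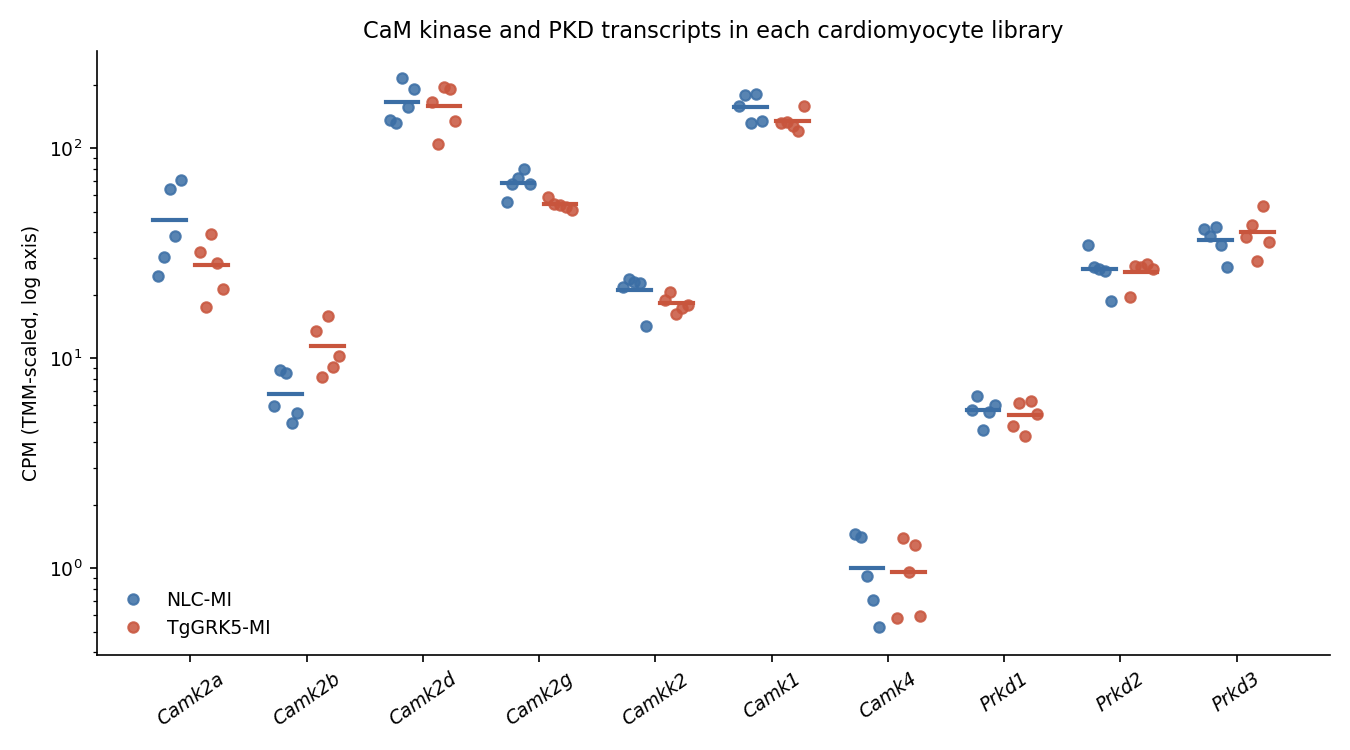
CPM of the 10 kinase genes in each library (log axis); points are libraries, ordered by replicate within a group, and bars are group means, with NLC-MI in blue and TgGRK5-MI in red. Camk2b has 4 of 5 TgGRK5-MI libraries above every NLC-MI library, Camk2g has 4 of 5 below, and the groups overlap for all 10 genes.

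Levels were compared between genes per kilobase of exon, using the union of all annotated exons of a gene. Camk1 stood highest at 24.4 CPM per kb (mean of 10 libraries, SD 3.69), followed by Camk2g at 9.57, Camk2d at 7.24, Prkd2 at 5.19, Camk2a at 4.92 and Prkd3 at 3.47. Camkk2 was at 1.80, Prkd1 at 1.51, Camk2b at 0.993 and Camk4 at 0.302 CPM per kb. Camk1 was above its neighbour in 10 of 10 libraries, but Prkd2 was above Camk2a in only 7 and Camk2a above Prkd3 in only 6, so these 3 were not ordered beyond their spread. The order of Camk2d and Camk2g depended on the length used, as did that of Prkd1 and Camk2b and that of Prkd2 and Camk2a. The union for Camk2d is 22493 bases, against 5524 for its longest transcript, and per kb of the longest transcript Camk2d was at 29.5 and Camk2g at 16.5 CPM per kb, with Camk2d higher in 10 of 10 libraries. Per kb of the longest transcript, Camk2b (2.20) was above Prkd1 (1.51) in 7 of 10 libraries, and Camk2a (7.39) above Prkd2 (7.22) in 5. Which isoform length applies to these cells was not tested.

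Camk2d, on chr3:126596302-126846326, encodes CaMKIIδ, the main CaMKII of heart muscle. It was at 137, 132, 216, 157 and 192 CPM in NLC-MI replicates 1 to 5 and at 167, 105, 196, 192 and 135 CPM in TgGRK5-MI replicates 1 to 5. The groups covered nearly the same range, and the fitted log2 fold change was -0.07 ± 0.21 (SE), with a 95% interval from -0.52 to 0.38 (edgeR quasi-likelihood p = 0.751, exact permutation p = 0.706). The interval leaves room for a fold from 0.700 to 1.30. The sign turned without NLC-MI replicate 3 or without TgGRK5-MI replicate 2.

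Camk2g, on chr14:20734875-20794088, encodes CaMKIIγ, which is broadly expressed and also present in the heart. Its level was 55.6, 68.0, 72.0, 79.4 and 67.3 CPM in NLC-MI against 58.6, 54.4, 53.9, 52.5 and 51.0 CPM in TgGRK5-MI. The TgGRK5-MI libraries lay close together, 4 of 5 below every NLC-MI library, and NLC-MI replicate 1 lay among them. The log2 fold change was -0.34 ± 0.12 (95% interval -0.61 to -0.07), with p = 0.0181 and an adjusted p of 1.00 in the edgeR test, and the exact two-sided permutation test gave p = 0.0159, where 0.00794 is the smallest it can give. The unadjusted edgeR p was no longer under 0.05 without NLC-MI replicate 4, where the log2 fold change was -0.28, or without the 3 shallowest libraries, where it was -0.31. It was 0.0541 with the replicate number as a block and 0.0627 with the covariate of Xist and Y-linked genes.

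Camk2a, on chromosome 18, encodes CaMKIIα, best known from neurons. It was at 24.7, 30.5, 64.0, 38.4 and 70.8 CPM in NLC-MI against 32.0, 17.6, 39.2, 28.5 and 21.3 CPM in TgGRK5-MI. NLC-MI replicates 3 and 5 stood above all other libraries, and the other 3 NLC-MI libraries lay within the TgGRK5-MI range. The log2 fold change was -0.72 ± 0.31 (95% interval -1.40 to -0.04, edgeR p = 0.0402, adjusted p = 1.00), and the exact permutation test gave p = 0.119. The unadjusted edgeR p was no longer under 0.05 when any 1 of 5 libraries was left out, which were NLC-MI replicates 3 and 5 (log2 fold changes of -0.57 and -0.51) and TgGRK5-MI replicates 2, 4 and 5 (-0.59, -0.73 and -0.64). Without the 3 shallowest libraries it was also above 0.05, with a log2 fold change of -0.81, and with the covariate of Xist and Y-linked genes it was 0.0892. With limma-voom and quality weights the log2 fold change was -0.35 (unadjusted p = 0.181).

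Camk2b, on chr11:5969644-6066362, encodes CaMKIIβ, known from neurons and skeletal muscle. Its counts were 134, 218, 65, 105 and 84 in NLC-MI against 301, 186, 184, 84 and 192 in TgGRK5-MI, or 5.90, 8.82, 8.51, 4.93 and 5.50 CPM against 13.5, 8.12, 16.0, 9.05 and 10.3 CPM. Of the TgGRK5-MI libraries, 4 lay above every NLC-MI library, and replicate 2 lay below NLC-MI replicates 2 and 3. The log2 fold change was 0.76 ± 0.24 (95% interval 0.23 to 1.30), a fold of 1.70, with p = 0.00903 and an adjusted p of 0.968 in the edgeR test and p = 0.0317 in the exact permutation test. Over 20 alternatives the log2 fold change lay between 0.60 and 0.88 with an unadjusted p under 0.05 in each of them, but an adjusted p under 0.10 in none.

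**Figure D2:**
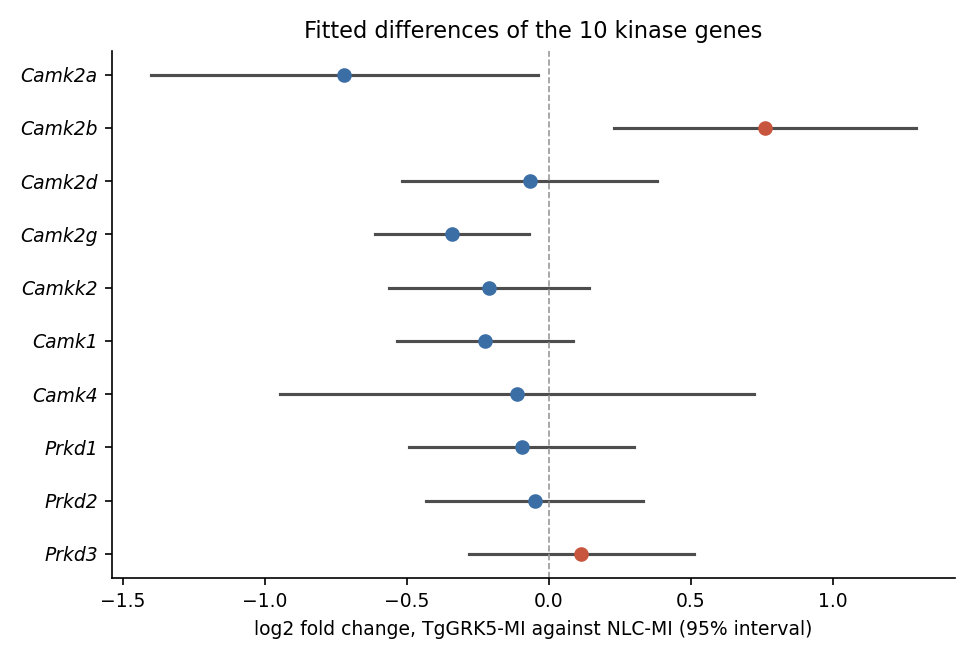
Fitted log2 fold change of each kinase gene, TgGRK5-MI against NLC-MI, with its 95% interval from the edgeR quasi-likelihood fit; values above 0 (red) are higher in TgGRK5-MI and values below 0 (blue) are lower. The intervals of Camk2b, Camk2g and Camk2a leave out 0 and the other 7 include it, before any adjustment for the genes tested.

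The CaMKII holoenzyme can hold several of these isoforms, and their shares of the summed CaMKII level per kb do not depend on how libraries are scaled. The share of Camk2d was 32.5, 27.2, 31.6, 27.8 and 29.3% in NLC-MI against 33.2, 28.5, 36.1, 39.7 and 33.4% in TgGRK5-MI. It was higher by 4.50 percentage points (exact permutation p = 0.0556), with 4 of 5 TgGRK5-MI libraries above every NLC-MI library. This p reached 0.0476 without NLC-MI replicate 1 (5.20 points) and 0.0159 without TgGRK5-MI replicate 2 (5.92 points). With 1 library left out, it was under 0.05 in only these 2 of 10 cases. In the others it was as high as 0.111, and the difference as low as 3.13 points. Per longest transcript the share of Camk2d was 50.6 ± 2.85% against 55.1 ± 4.66% (n = 5, exact permutation p = 0.0952).

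The remaining shares were computed after the gene values were seen and are given without a test. Camk2b made up 3.46, 4.49, 3.07, 2.15 and 2.07% of the CaMKII level in NLC-MI against 6.61, 5.42, 7.26, 4.60 and 6.30% in TgGRK5-MI. The lowest TgGRK5-MI library was at 4.60% and the highest NLC-MI library at 4.49%, and with the longest transcript 4 of 5 TgGRK5-MI libraries were above every NLC-MI library. Camk2b had the largest increase of the 10 genes, and its share is given for that reason, as a description. Camk2a made up 23.6 ± 6.47% and 17.8 ± 2.87%, and Camk2g 43.7 ± 6.60% and 42.0 ± 6.49%. The summed CaMKII level was lower by 0.28 on the log2 scale in TgGRK5-MI (exact permutation p = 0.119).

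**Figure D3:**
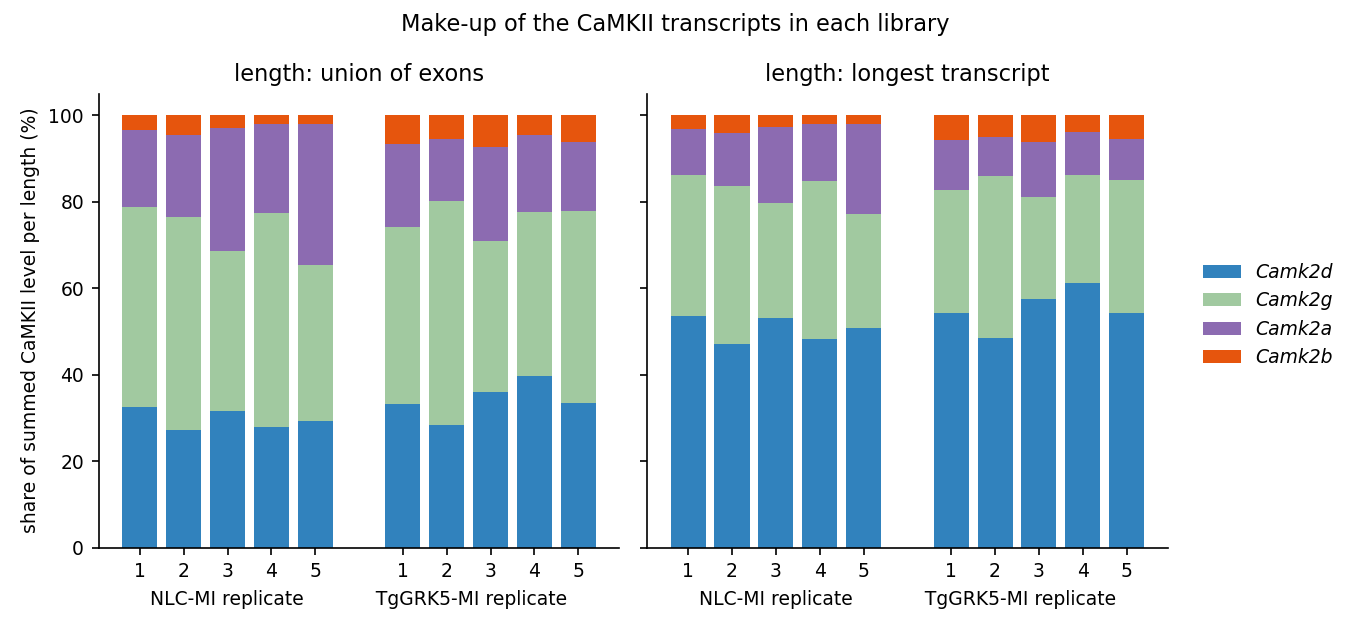
Share of the 4 CaMKII genes in the summed CaMKII level per kb in each library (stacked bars, percent), with the union of exons (left) or the longest transcript (right) as the length. Camk2b is the smallest share in every library, from 2.07 to 4.49% in NLC-MI and from 4.60 to 7.26% in TgGRK5-MI with the union of exons, and the share of Camk2d depends on the length used.

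Summed cardiomyocyte markers moved with Camk2a across libraries. NLC-MI replicate 5 had the highest summed cardiomyocyte markers of all libraries (131655 CPM) and the highest Camk2a, and TgGRK5-MI replicate 2 had the lowest of its group for both (53337 CPM of markers). Per 10000 CPM of cardiomyocyte markers, a measure added after the values were seen, Camk2a was at 5.45 ± 1.37 CPM (4.33 to 7.80) in NLC-MI against 3.73 ± 0.428 CPM (3.30 to 4.34) in TgGRK5-MI, with 4 of 5 TgGRK5-MI libraries below every NLC-MI library. Camk2b was at 0.899 ± 0.361 CPM (0.418 to 1.25) and 1.54 ± 0.106 CPM (1.38 to 1.64), and the groups no longer overlapped. Such a separation with TgGRK5-MI higher was found for 0.597% of all genes tested after the same division, and a separation in either direction for 0.781%. On this scale the groups overlapped for the other 9 kinase genes, Camk2g included (8.90 ± 2.26 and 7.70 ± 1.82 CPM). Markers of Schwann cells and neurons, in which Camk2a and Camk2b are abundant, summed to between 12.8 and 71.8 CPM in NLC-MI and between 19.4 and 40.8 CPM in TgGRK5-MI. Of these 7 markers Snap25 and Syt1, among others, were at 0 in some libraries, and the part of such cells in the kinase levels was not tested.

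**Figure D4:**
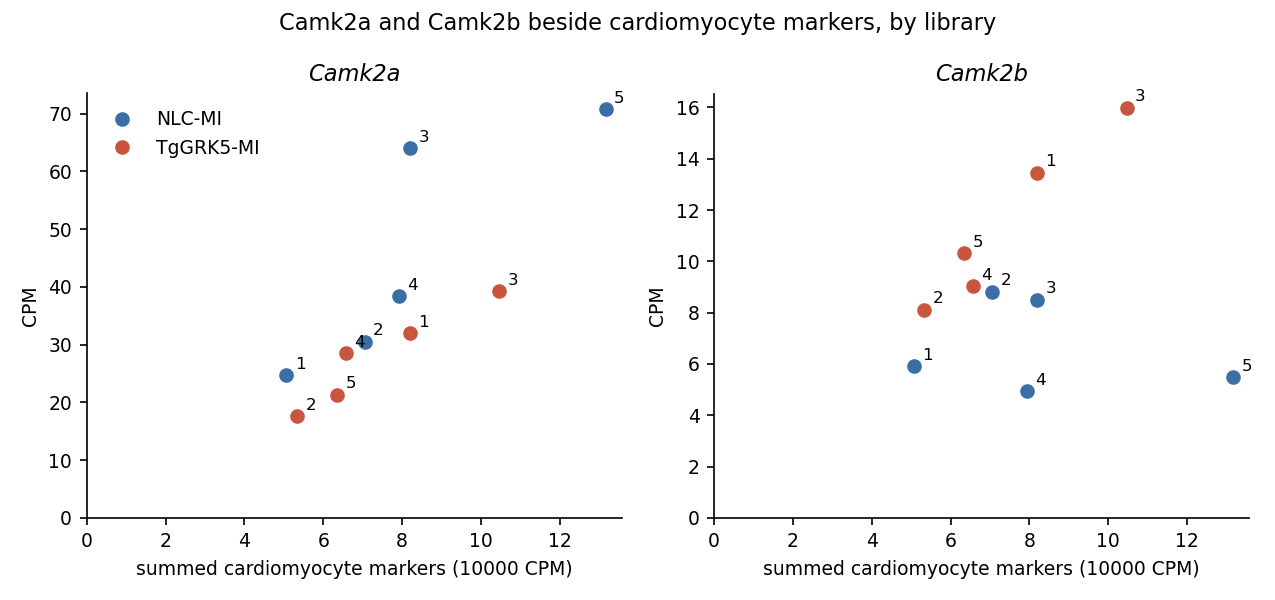
CPM of Camk2a (left) and Camk2b (right) against the summed CPM of 10 cardiomyocyte markers in units of 10000 CPM, 1 point per library labelled with its replicate number, NLC-MI in blue and TgGRK5-MI in red. Camk2a is highest in NLC-MI replicate 5, which also has the most marker RNA (131655 CPM), whereas Camk2b in that library (5.50 CPM) is below all TgGRK5-MI libraries.

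Camkk2 on chr5:122731170-122779409 encodes the calcium/calmodulin-dependent kinase that activates CaMKI, CaMKIV and also AMPK. It was at 21.8, 23.8, 23.0, 22.8 and 14.3 CPM in NLC-MI against 19.0, 20.6, 16.3, 17.4 and 17.9 CPM in TgGRK5-MI. NLC-MI replicate 5 was the lowest of all 10 libraries, and the other 4 NLC-MI libraries were above every TgGRK5-MI library. The log2 fold change was -0.21 ± 0.16 (95% interval -0.56 to 0.14, edgeR p = 0.219, exact permutation p = 0.230), and without NLC-MI replicate 5 it was -0.33 with an unadjusted edgeR p under 0.05.

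Camk1, on chr6:113334124-113343984, encodes CaMKI, a cytosolic target of CaMKK. Its level was 158, 179, 132, 182 and 135 CPM in NLC-MI against 132, 134, 127, 121 and 159 CPM in TgGRK5-MI. The groups overlapped, with TgGRK5-MI replicate 5 as high as the middle of NLC-MI, and the log2 fold change was -0.23 ± 0.14 (95% interval -0.54 to 0.08, edgeR p = 0.139, exact permutation p = 0.0952). Camk4, on chromosome 18, encodes the nuclear kinase CaMKIV, known from T lymphocytes and neurons. It was near the limit of the depth, with 33, 35, 7, 15 and 8 counts in NLC-MI against 13, 32, 11, 12 and 11 counts in TgGRK5-MI. These counts correspond to between 0.524 and 1.45 CPM and between 0.581 and 1.40 CPM. The 95% interval of the log2 fold change ran from -0.94 to 0.72, which leaves room for a difference of either sign. Markers of T lymphocytes summed to between 1.57 and 4.63 CPM and between 2.15 and 3.84 CPM, with Cd3d, Cd3e, Cd3g and Cd2 at 0 in some libraries, and their part in the Camk4 counts was not tested.

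The PKD genes had log2 fold changes between -0.09 and 0.12. Prkd1, on chr12:50341231-50649098, encodes PKD1, the form studied most as an HDAC kinase in heart muscle, and it was at 5.68, 6.64, 4.58, 5.54 and 6.02 CPM in NLC-MI against 4.74, 6.11, 4.26, 6.25 and 5.42 CPM in TgGRK5-MI. Both groups covered a similar range, with a log2 fold change of -0.09 ± 0.18 (95% interval -0.49 to 0.30, edgeR p = 0.613, exact permutation p = 0.532). Prkd2, on chr7:16842902-16870464, encodes PKD2, which is also abundant in endothelial and immune cells. It was at 34.6, 27.2, 26.6, 26.0 and 18.7 CPM in NLC-MI against 19.5, 27.4, 27.1, 28.2 and 26.5 CPM in TgGRK5-MI. Apart from 1 high and 1 low NLC-MI library and 1 low TgGRK5-MI library, the libraries lay together, and the log2 fold change was -0.05 ± 0.17 (95% interval -0.43 to 0.33, edgeR p = 0.783, exact permutation p = 0.968). Prkd3, on chr17:78949405-79020816, encodes PKD3, and it was at 41.3, 38.3, 42.4, 34.7 and 27.1 CPM in NLC-MI against 37.8, 43.2, 28.9, 53.0 and 36.0 CPM in TgGRK5-MI. The fitted difference of Prkd3 was 0.12 ± 0.18 on the log2 scale (95% interval -0.28 to 0.51, edgeR p = 0.538, exact permutation p = 0.587), and it was -0.0069 without TgGRK5-MI replicate 4.

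With the union of exons, Prkd2 was the largest part of the PKD level per kb in both groups, at 51.5 ± 3.28% in NLC-MI against 50.3 ± 5.50% in TgGRK5-MI. Prkd3 made up 32.8 ± 2.51% and 35.3 ± 4.81%, and Prkd1 15.7 ± 3.62% and 14.4 ± 1.02% (n = 5, exact permutation p = 0.516 for Prkd1, the share fixed for testing). Per longest transcript Prkd2 was at 48.2 ± 2.91% and 46.6 ± 5.73%, and Prkd3 at 41.2 ± 2.62% and 43.9 ± 5.40%. On that length Prkd3 was the larger in TgGRK5-MI replicates 1 and 4. Endothelial markers summed to between 826 and 1387 CPM in NLC-MI and between 754 and 1460 CPM in TgGRK5-MI, and their part in the Prkd2 level was not tested. The summed PKD level differed by 0.0055 on the log2 scale (exact permutation p = 0.976), with its sign depending on the library left out.

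Calm2 and Calm3 encode calmodulin, which binds and opens the CaM kinases. Calm2 was at 176 ± 46.9 and 217 ± 59.7 CPM and Calm3 at 228 ± 17.2 and 230 ± 11.9 CPM in NLC-MI and TgGRK5-MI, respectively. Their log2 fold changes of 0.30 and 0.01 had edgeR p-values of 0.194 and 0.921. Camk2n1 and Camk2n2 encode inhibitor proteins of CaMKII, and were at 20.8 ± 5.74 and 19.4 ± 6.92 CPM and at 2.50 ± 0.904 and 2.83 ± 0.775 CPM. The log2 ratio of summed CaMKII to Camk2n1 was 2.43 ± 0.371 in NLC-MI against 2.28 ± 0.392 in TgGRK5-MI (n = 5, exact permutation p = 0.532). In the list of 10 genes of calmodulin, CaMK inhibitors and CaMK phosphatases, 9 were tested and 0 had an unadjusted p under 0.05 in the edgeR test. Pcp4 was under the filter.

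Around the 10 kinases, 91 genes of 5 lists were followed, of which 87 were tested. None passed an adjusted p under 0.10 in the edgeR test, and at an unadjusted p under 0.05 there was 1 higher and 8 lower in TgGRK5-MI, against 1.77 and 2.08% of all genes. Their median log2 fold change was -0.12, against 0.0013 for all genes tested.

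Among 15 tested other CaM-dependent kinases (of 17, with Camk1g and Camkv under the filter), only Phkg1 had an unadjusted p under 0.05. Phkg1 encodes the catalytic subunit of muscle phosphorylase kinase, which starts glycogen breakdown and contains calmodulin as a subunit. It was at 19.2 ± 8.02 CPM in NLC-MI against 9.13 ± 1.14 CPM in TgGRK5-MI, with ranges from 10.7 to 28.3 and from 7.85 to 10.9. The ranges overlapped narrowly, and the log2 fold change was -1.07 ± 0.27 (edgeR p = 0.00178, adjusted p = 0.501, exact permutation p = 0.0159), while DESeq2 gave an adjusted p of 0.0510. The groups did not overlap for 1 of the 15 genes of this list, against 1.0% of all genes tested. This gene was Phkg2, which encodes the liver and testis form of the subunit. Phkg2, named here after its values were seen, was at 17.7 ± 0.754 and 21.9 ± 4.21 CPM, with a log2 fold change of 0.31 ± 0.15 (edgeR p = 0.0644, exact permutation p = 0.00794, the smallest it can give).

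Upstream of PKD, the 21 genes for G proteins, phospholipase C, protein kinase C and diacylglycerol kinases were all tested. Prkcq, which encodes protein kinase Cθ, was at 3.44 ± 0.475 CPM in NLC-MI against 4.94 ± 0.921 CPM in TgGRK5-MI (log2 fold change 0.53 ± 0.20, edgeR p = 0.0226, adjusted p = 1.00, exact permutation p = 0.0159). The other 20 had an unadjusted p of 0.05 or more, and the median of the list was -0.04. Gnaq, which encodes the Gq subunit, was at 44.0 ± 8.38 and 43.8 ± 6.45 CPM.

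Of 21 nuclear targets, 20 were tested (Mef2b was under the filter). Their median log2 fold change was -0.14, with 13 of 20 below 0, but without NLC-MI replicate 3 it was -0.0041 with 10 of 20 below 0, and with the covariate of Xist and Y-linked genes it was -0.0062. It was -0.06 without TgGRK5-MI replicate 2 or 5. After division by summed cardiomyocyte markers, the scale described in the next paragraph, it was -0.0041, but the median of all genes tested was then 0.15. The median of this list thus stayed below that of all genes tested on that scale. Hdac5, a class IIa HDAC that CaMKII, PKD and GRK5 can phosphorylate, was at 83.1 ± 14.7 CPM in NLC-MI against 60.9 ± 7.71 CPM in TgGRK5-MI, with a log2 fold change of -0.45 ± 0.15 (edgeR p = 0.0120, adjusted p = 1.00, exact permutation p = 0.0238). Sfn, which encodes a protein of the family that holds phosphorylated HDACs in the cytosol, was at 20.9 ± 9.29 and 11.0 ± 2.80 CPM (log2 fold change -0.92 ± 0.36, edgeR p = 0.0239, exact permutation p = 0.127). The other 6 genes of this family on the list had log2 fold changes from -0.21 to 0.38, 4 of them above 0, and the smallest of their unadjusted edgeR p-values was 0.219. Hdac4, Hdac7 and Hdac9, the other class IIa HDACs, had log2 fold changes of -0.40, -0.30 and -0.29 with edgeR p-values of 0.159, 0.144 and 0.280. These moved to -0.11 for Hdac4 without NLC-MI replicate 5, to -0.19 for Hdac7 without TgGRK5-MI replicate 3, and for Hdac9 to -0.12 without NLC-MI replicate 3, -0.15 without TgGRK5-MI replicate 2 and -0.51 without TgGRK5-MI replicate 3.

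The 22 cytosolic and membrane substrates of the myocyte were all tested, and 20 of 22 log2 fold changes lay below 0, with a median of -0.25 that was -0.39 without NLC-MI replicate 1. The count was also 20 of 22 with RLE size factors or library size alone, and 16 of 22 with limma-voom and quality weights. Division by summed cardiomyocyte markers, a scale added after the values were seen, put the median of all genes tested at 0.15 in place of 0.0013. On that scale 14 of 22 substrates lay below 0 with a median of -0.11. Of the 10 kinase genes 4 lay below 0, with a median of 0.05. Since 0 is not the middle of all genes there, these counts cannot be set against those before the division. Both medians stayed below that of all genes tested. Without the division, 5 of the 22 substrates were lower and 0 were higher at an unadjusted p under 0.05. Ryr2, the ryanodine receptor through which calcium leaves the sarcoplasmic reticulum, was at 1489 ± 538 CPM in NLC-MI against 783 ± 184 CPM in TgGRK5-MI (log2 fold change -0.93 ± 0.30, edgeR p = 0.00903, adjusted p = 0.968, exact permutation p = 0.0476). Cacna1c, the pore of the L-type calcium channel, was at 210 ± 74.1 and 123 ± 28.1 CPM (-0.77 ± 0.26, edgeR p = 0.0122, exact permutation p = 0.0476). Both are channels that CaMKII is known to phosphorylate, and their groups overlapped. Summed cardiomyocyte markers had a median of 79252 CPM in NLC-MI against 65724 CPM in TgGRK5-MI (exact permutation p = 0.627), and their part in these differences was not tested. The markers include Ryr2, Pln, Tnni3 and Ttn of this list, so the division set these genes against a sum that contains them. Pln, which encodes phospholamban, a CaMKII substrate that restrains the calcium pump, was at 4528 ± 2211 and 4107 ± 1251 CPM (log2 fold change -0.14, edgeR p = 0.723, exact permutation p = 0.857).

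The 6 pathway genes described above with an unadjusted p under 0.05 were refitted with each of the 10 libraries left out. Phkg1, Hdac5, Ryr2 and Cacna1c kept such a p in all 10 fits. Prkcq and Sfn kept it in 7 of 10, with unadjusted p up to 0.0703 and 0.0597, both without NLC-MI replicate 1.

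**Figure D5:**
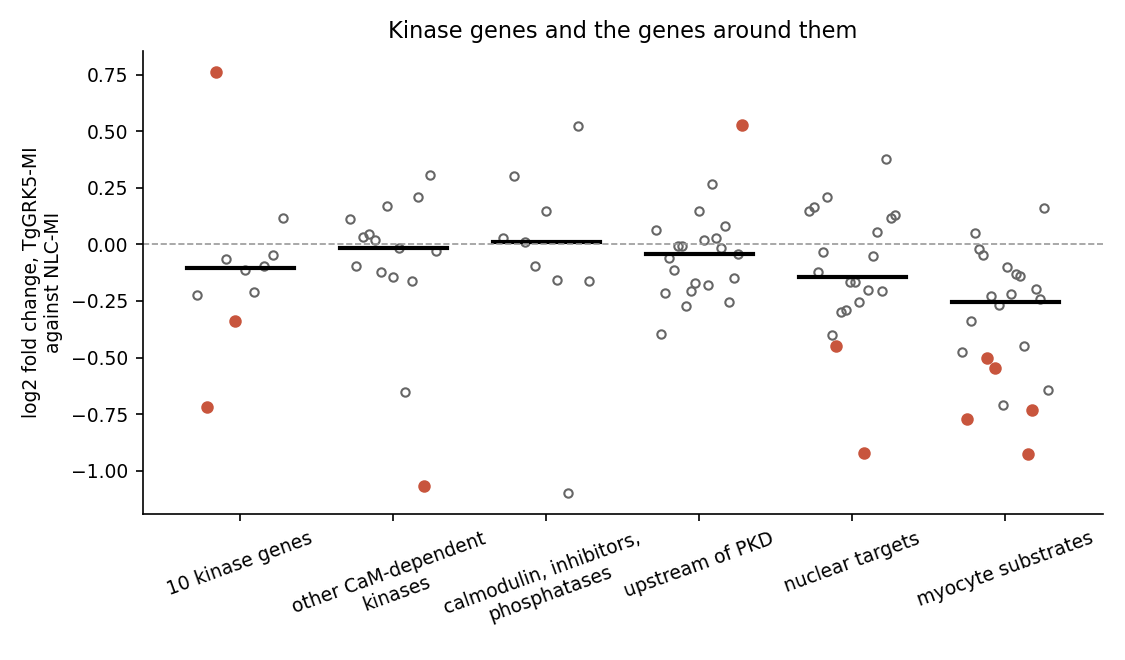
Log2 fold change of each tested gene, TgGRK5-MI against NLC-MI, for the 10 kinase genes and the 5 lists around them; filled red points have an unadjusted p under 0.05 in the edgeR test, open points do not, and bars are medians. The myocyte substrates have the lowest median, -0.25, and none of the genes shown passes an adjusted p under 0.10 in that test (Phkg1 does in DESeq2, at 0.0510).

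For each family the member with the highest level per kb of the union of exons was taken. Per longest transcript Camk2d stood above Camk2g, and the nearest genes of Camk2d were not sought. The genes nearest in pattern over the 10 libraries were found among 9708 genes of 10 CPM or more, by the mean absolute distance of centred log2 CPM. For Camk2g these were Pcnx (0.0470), Atp6v0a2 (0.0565) and Nol6 (0.0573), where Camk2g itself deviated from its mean by 0.191 on average. For Camk1 they were Jak3 (0.0769), Cerk (0.0797) and Dnm2 (0.0818), and for Prkd2 Pxn (0.108), Map3k11 (0.112) and Slc3a2 (0.113). Camk2g and Camk1 were followed more closely than Prkd2, whose own mean deviation was 0.173.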

How the data were processed

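RNA of isolated cardiomyocytes from 10 mice was sequenced by the authors with TruSeq libraries, and the labels give the group and replicate of each. The authors deposited whole-number read counts per Ensembl gene, not normalized. The submitters' processing notes name Bowtie2, RSEM 1.2.31, DESeq2 and mm10 without their roles. The annotation, strand setting and rounding are not given in the sources used here, and RSEM would make the counts estimates. GENCODE M21 (GRCm38) named 51596 of 51789 identifiers and gave positions, lengths and transcripts.

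Counts were fitted in R 4.3.3 with edgeR 4.0.16 (TMM, filterByExpr by group, quasi-likelihood F test with group as the term), with Benjamini-Hochberg adjustment over the 15232 genes tested of 28506 with a total above 0. The threshold was an adjusted p under 0.10, the false discovery rate of the study, and an unadjusted p under 0.05 was a second rule. For single values the exact permutation test, two-sided, of mean log2 CPM (prior count 2) was added. CPM per kb used the union of exons, or the longest transcript. Intervals are 95% intervals of the fit. Median totals were 20540815 counts in NLC-MI and 18337488 in TgGRK5-MI, and p-values measure the spread between mice. Replicates of a group differed beyond counting noise, so none was counted as a duplicate. The fit was tested on simulated data. DESeq2 1.42.0, limma 3.58.1 (voom) and the other alternatives are in the closing section. The members and lists were chosen with earlier results of these data known. Named were all members, Grk5, calmodulin and CaMKII inhibitor genes, up to 3 genes per list with the smallest unadjusted p under 0.05, and 3 nearest genes per family. Gnaq, Pln, Phkg2, Hdac4, Hdac7 and Hdac9 were named after their values were seen. Ranges of marker genes are sums of CPM. Same-numbered libraries come from different mice.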

Additional observations from a re-analysis of the deposited data

Results flagged for a closer look

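In 30 groups of 5 libraries (the 10 kinase genes and 5 summed or share values, each in both groups), a single library stood apart in 2, by the gap to its nearest neighbour divided by the range of the group. Chance sets a library apart in about 1 in 20 groups. Camkk2 in NLC-MI replicate 5 was at 14.3 CPM, with the other 4 NLC-MI libraries between 21.8 and 23.8 CPM (gap over range 0.798, against a critical value of 0.71). Prkd2 in TgGRK5-MI replicate 1 was at 19.5 CPM, with the others of its group between 26.5 and 28.2 CPM (gap over range 0.805). NLC-MI replicate 5 also had the highest summed cardiomyocyte markers, and whether this bears on Camkk2 was not tested.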

How the results depend on the processing

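Every count of kinase genes at an adjusted p under 0.10 was 0 under all 20 alternatives, which included other scalings, DESeq2, limma-voom, other filters, a covariate of Xist and Y-linked genes, each library left out, and, added after the data were seen, the 7 deepest libraries. Grk5 stayed between 4.18 and 4.53. For Camk4 the filter of 10 counts in every library gave no value. Kinase genes lower at an unadjusted p under 0.05 numbered 2, but 3 with limma-voom (Camk2g, Camk1 and Camkk2, without Camk2a), 0 with the covariate or the 7 deepest libraries, and between 1 and 2 with a library left out. Other pathway genes lower at this p numbered 8, but 5 with the covariate or the 7 libraries (6 to 9 with a library left out). Those higher numbered 1, but 2 with limma-voom or the covariate and 0 with the 7 libraries (0 to 3 with a library left out). DESeq2 called 1 of these genes lower at an adjusted p under 0.10. Camk4 was -0.633 with limma-voom. Camk2d turned to 0.0505 with limma-voom and to 0.0459 with the covariate, where Prkd2 turned to 0.0265. With a library left out, Camk2d lay between -0.164 and 0.0506, Camk4 between -0.326 and 0.0581, Prkd2 between -0.161 and 0.0514, Prkd3 between -0.0069 and 0.20, the Camk2d share difference between 3.13 and 5.92 points, the Prkd1 share difference between -2.20 and 0.0522 points, and the summed PKD difference between -0.0857 and 0.0737 (-0.00849 with RLE size factors). Of the pathway genes, Phkg1 passed an adjusted p under 0.10 with DESeq2. Calm3 was -0.00187 with RLE size factors and -0.00172 with DESeq2, and Pln 0.258 with limma-voom. With a library left out, Calm3 lay between -0.0197 and 0.0470, and Pln between -0.324 and 0.135. The causes were not tested.

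Libraries of the same replicate number had correlations of 0.0717, 0.662, 0.381, -0.341 and 0.0848 of their deviations from group means, and 1 of 5 numbers was its own best match, so the numbers were not taken to pair mice. With the replicate number as a block, Camk2b was 0.75, Camk2a -0.66, Camk2g -0.33 (its unadjusted p no longer under 0.05) and Grk5 4.26, with 1 kinase gene higher and 1 lower at an unadjusted p under 0.05, and 0 other pathway genes higher and 5 lower. The blocked difference of the Camk2d share was 4.50 points (exact sign-flip p = 0.0625, the smallest this test can give).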
